A study of Homo sapiens with 6 samples.

Results

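The enzymes that make nucleotides and the one-carbon units built into them were followed as 36 genes, taken from the deposited count table of 58735 genes by symbol. They were read in 5 arms: 12 genes of purine synthesis, 5 of pyrimidine synthesis, 6 of deoxynucleotide synthesis, 5 of folate one-carbon metabolism and 8 of salvage and phosphate transfer. The deoxynucleotide steps were kept as an arm of their own because ribonucleotide reductase (RRM1, RRM2 and RRM2B) serves both kinds of base. TYMS, DTYMK and DUT act on pyrimidines only, and the counts and sums of the pyrimidine arm leave them out. Each of the 36 had 1 row in the table, and all 36 passed the filter on low counts. The cells were T3M4, an established human pancreatic ductal adenocarcinoma line, untreated and grown in serum-containing medium to near confluence. Bulk RNA sequencing gave 3 libraries labelled WT, whose genotype label reads MUC16 expressing, and 3 whose titles read T3M4M16 and whose genotype label reads MUC16 knockout. How the knockout was made, and whether it is 1 clone, is not given in the sources used here. The labels do not tie libraries to separate cultures. A p-value therefore measures the spread among these samples alone, and that spread may be technical. In bulk samples fewer cells of a type and less RNA per cell cannot be told apart.

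Library totals ran from 19088927 to 28612621 counts. MUC16, the targeted gene, had 98, 144 and 90 counts under the WT label and 292, 504 and 323 under the knockout label, and its RNA was the higher under the knockout label (log2 fold change 1.79 ± 0.17, SE, adjusted p = 4.79e-09 by edgeR's quasi-likelihood test). The RNA of the targeted gene was thus higher, not lower, under the knockout label, at a low level under both. That label gives a genotype and does not state an RNA level, and whether the labels were exchanged was not tested. Whether MUC16 protein is made was not measured here. Directions are given throughout for the knockout label against the WT label, and if the 2 labels were exchanged every rise and fall given here would turn. Keratins and other markers of epithelial carcinoma were abundant under both labels: their 6 genes summed to 3388 to 3472 CPM (counts per 1e6 of the library total) under the WT label and 5655 to 5892 under the knockout label. Of 7 fibroblast markers 5 stayed under 10 counts in every library, as did 4 of 5 leukocyte markers. The summed level was 29.9 to 33.3 CPM for the fibroblast list and 13 to 16.1 CPM for the 3 endothelial markers under the WT label, against 43.6 to 48.4 and 20.2 to 22.5 CPM under the knockout label, most of it from COL1A1 and PECAM1. Their part in the results was not tested.

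As background, purine bases are built step by step on a ribose phosphate, phosphoribosyl pyrophosphate (PRPP), up to inosine monophosphate (IMP), which then branches to AMP and GMP. The pyrimidine ring is closed first and joined to PRPP afterwards, giving UMP and, from UTP, CTP. Folate carries carbon units, mostly taken from serine, into the purine ring and into thymidylate. Ribonucleotide reductase turns ribonucleotides into deoxynucleotides for DNA, and salvage enzymes return free bases and nucleosides to the pools. Many of these genes are known targets of the transcription factor MYC, and several are induced at the entry into S phase.

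Most of the 36 enzymes were lower in the libraries labelled knockout, by modest amounts. By edgeR's quasi-likelihood test, adjusted by Benjamini-Hochberg over all 16655 genes tested with a threshold of 0.05, 27 were lower, 1 was higher and 8 did not pass. Of all genes tested, 25.9% were called lower and 26.7% higher. The enzymes were well expressed (median over members of the mean level, 79.3 CPM after scaling by TMM factors), and among genes with a mean of at least 10 CPM 38.0% were called lower and 25.4% higher. Of the 34 members at that level, 26 were lower and 1 was higher. The median log2 fold change was -0.27 over the members, 0.00 over all genes tested and -0.06 over genes of at least 10 CPM. No called member changed by 2-fold or more, and 5 fell by at least 0.5 on the log2 scale (NME2, IMPDH1, PFAS, CTPS1 and CAD), a size reached by 6.50% of all genes tested. Groups did not overlap for 27 members that were lower and 2 that were higher, against 29.0% and 30.0% of all genes tested. The authors' deposited table calls 26 of the members lower and 1 higher at the same threshold. It differs from the present fit only for DCK.

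**Figure D1:**
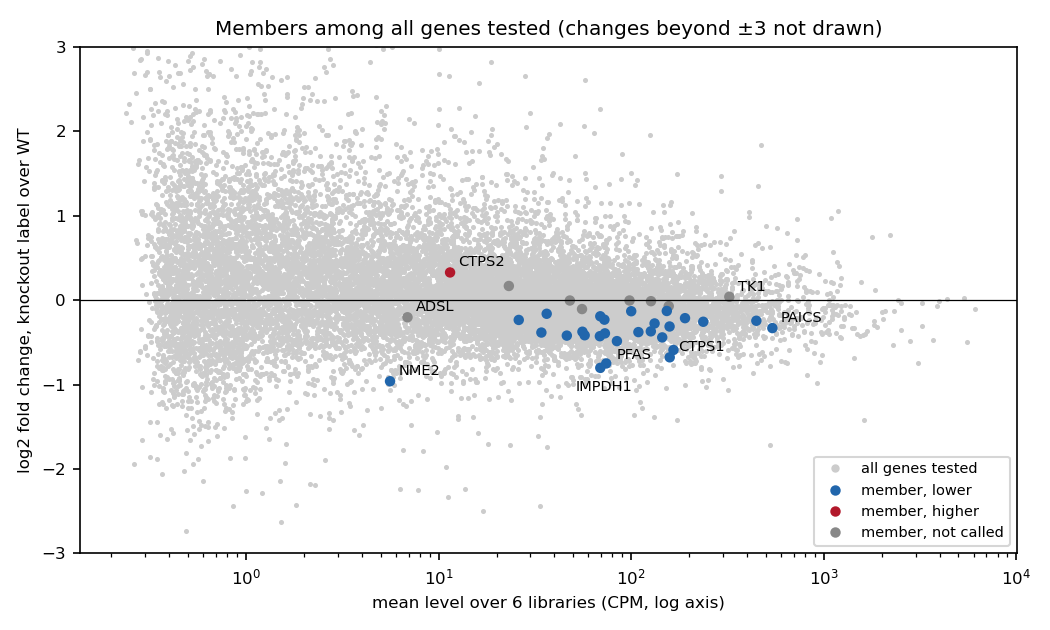
Mean level over the 6 libraries (CPM, log axis) against log2 fold change of the libraries labelled knockout over those labelled WT, for all 16655 genes tested (grey, changes beyond ±3 not drawn) and the 36 enzymes (coloured by call). Most enzymes lie below 0 at levels of 10 CPM and more, with CTPS2 the only member called higher.

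**Figure D2:**
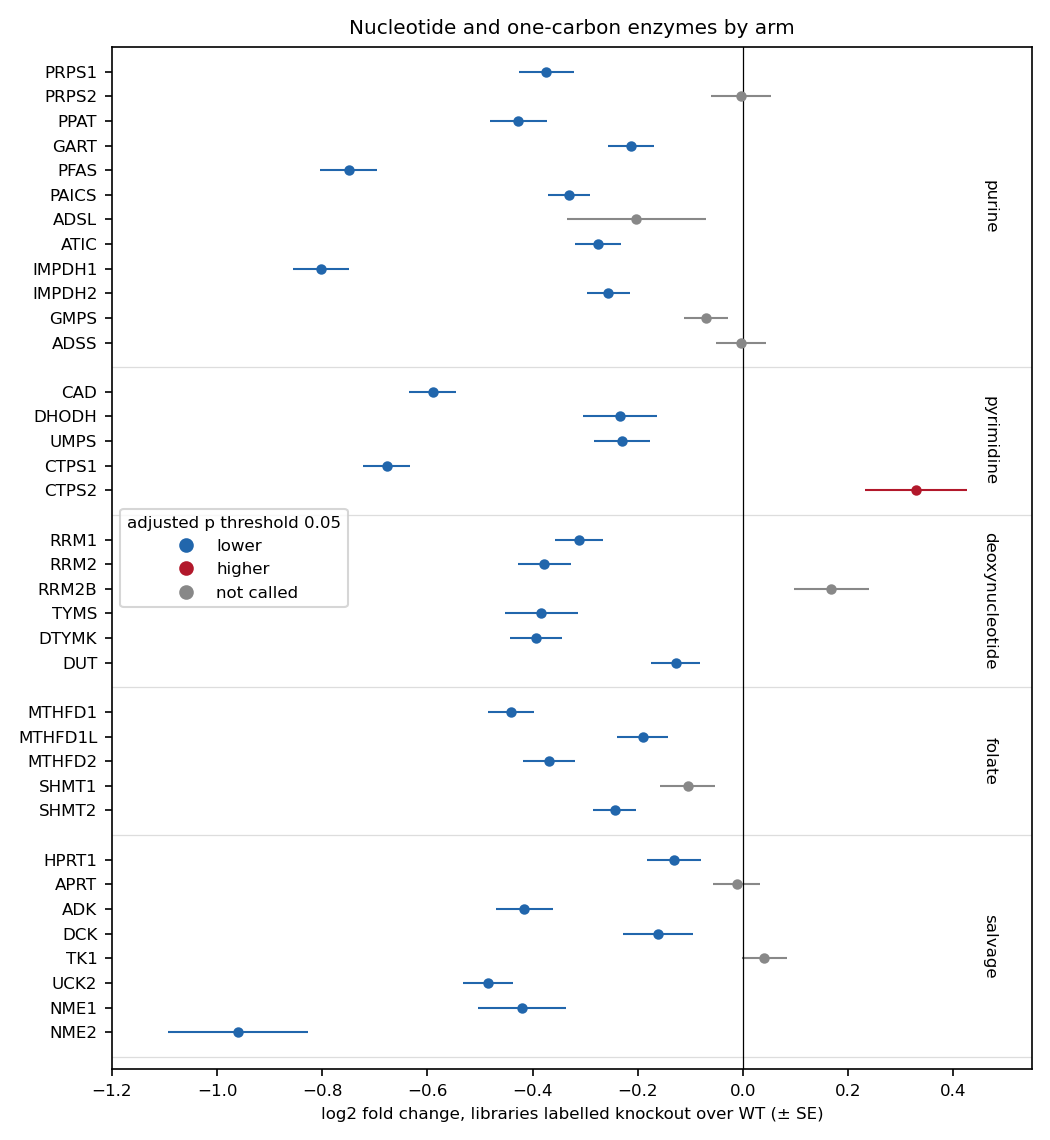
Log2 fold change (± SE, edgeR) of each enzyme, grouped by arm and listed in pathway order. Blue points were called lower, the red point higher, and grey points did not pass the adjusted p threshold of 0.05; IMPDH1, PFAS, CTPS1, CAD and NME2 lie beyond -0.5.

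In the purine arm 8 of 12 enzymes were lower, the other 4 did not pass, and the median log2 fold change was -0.27. The entry of the pathway is PRPP synthetase, which has a pair of widely expressed isoforms. PRPS1 measured 64.9, 62.3 and 62.0 CPM in the libraries labelled WT and 47.7, 49.2 and 49.1 CPM in those carrying the knockout label (log2 fold change -0.37 ± 0.05, SE). PRPS2 measured 48.2, 45.8 and 50.5 CPM under the WT label and 48.8, 46.8 and 48.5 CPM under the knockout label, with groups that overlap (-0.00 ± 0.06, adjusted p = 0.962). The first isoform was called and the second was not. PPAT, the amidotransferase of the committed step, measured 85.5, 77.8 and 73.5 CPM under the WT label and 57.9, 58.6 and 59.6 CPM under the knockout label (-0.43 ± 0.06), and all 3 knockout-labelled libraries lay below the lowest of the others. GART, a multifunctional enzyme of the middle of the pathway, fell less (-0.21 ± 0.04), from 204 ± 9.13 to 176 ± 5.37 CPM (SD, n = 3 each), and by 0.10 on the log2 scale with cyclic loess scaling (adjusted p = 0.0485).

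PFAS, which adds the amide nitrogen of glutamine to the growing ring, had the largest fall on the way to IMP (ENSG00000178921, GRCh38 chromosome 17, 8247618 to 8270491, plus strand). It measured 93.6, 90.7 and 95.0 CPM under the WT label and 54.4, 60.1 and 51.6 CPM under the knockout label, and so fell by 40.5% (log2 fold change -0.75 ± 0.05, SE, edgeR adjusted p = 6.26e-11). PAICS, a bifunctional enzyme later on the way to IMP and the most abundant member by CPM, measured 628, 588 and 592 CPM under the WT label and 477, 466 and 495 CPM under the knockout label (-0.33 ± 0.04). The groups of both genes are clearly apart, by more than the spread within either, though with cyclic loess the change of PAICS was -0.20. ATIC, which closes the ring to IMP, fell from 145 ± 3.95 to 119.7 ± 3.57 CPM (-0.28 ± 0.04, and -0.18 with cyclic loess). ADSL, which releases fumarate in this pathway, did not pass (-0.20 ± 0.13, adjusted p = 0.205), and its level is uncertain. Without KO replicate 1 its change was -0.08 (adjusted p = 0.633), and with cyclic loess -0.36 (0.031). It had 198, 188 and 173 counts under the WT label and 100, 183 and 202 under the knockout label, and 18.9% of its exon bases lie in the readthrough gene AL022238.4 on the same strand, which itself had 2 to 6 counts per library. How reads in shared exons were counted is not given in the sources used here.

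After IMP, of the IMP dehydrogenases, which take IMP toward guanine nucleotides, IMPDH1 (ENSG00000106348, GRCh38 chromosome 7, 128392277 to 128410252, minus strand) measured 87.7, 91.9 and 84.3 CPM under the WT label and 49.1, 48.7 and 53.3 CPM under the knockout label, and so fell by 42.6% (log2 fold change -0.80 ± 0.05, SE, edgeR adjusted p = 1.33e-11). IMPDH2, the isoform known for proliferating cells, measured 263, 256 and 254 CPM under the WT label and 218, 208 and 222 CPM under the knockout label (-0.26 ± 0.04, and -0.14 with cyclic loess). Both fell with no overlap between groups. Per length, IMPDH2 was the more abundant of the pair, at 92.7 ± 1.86 FPKM under the WT label and 77.0 ± 2.79 FPKM under the knockout label (mean ± SD, n = 3 each, the authors' FPKM), against 23.9 ± 1.03 FPKM under the WT label and 13.6 ± 0.688 FPKM under the knockout label for IMPDH1. GMPS, the next enzyme toward GMP, measured 164, 158 and 159.6 CPM under the WT label and 148, 155 and 155 CPM under the knockout label. Its groups do not overlap, but the difference did not pass (-0.07 ± 0.04, adjusted p = 0.165). ADSS, on the branch to AMP, had overlapping groups, at 99.6, 96.0 and 99.2 CPM under the WT label and 94.2, 95.5 and 104 CPM under the knockout label (-0.00 ± 0.05, adjusted p = 0.958).

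**Figure D3:**
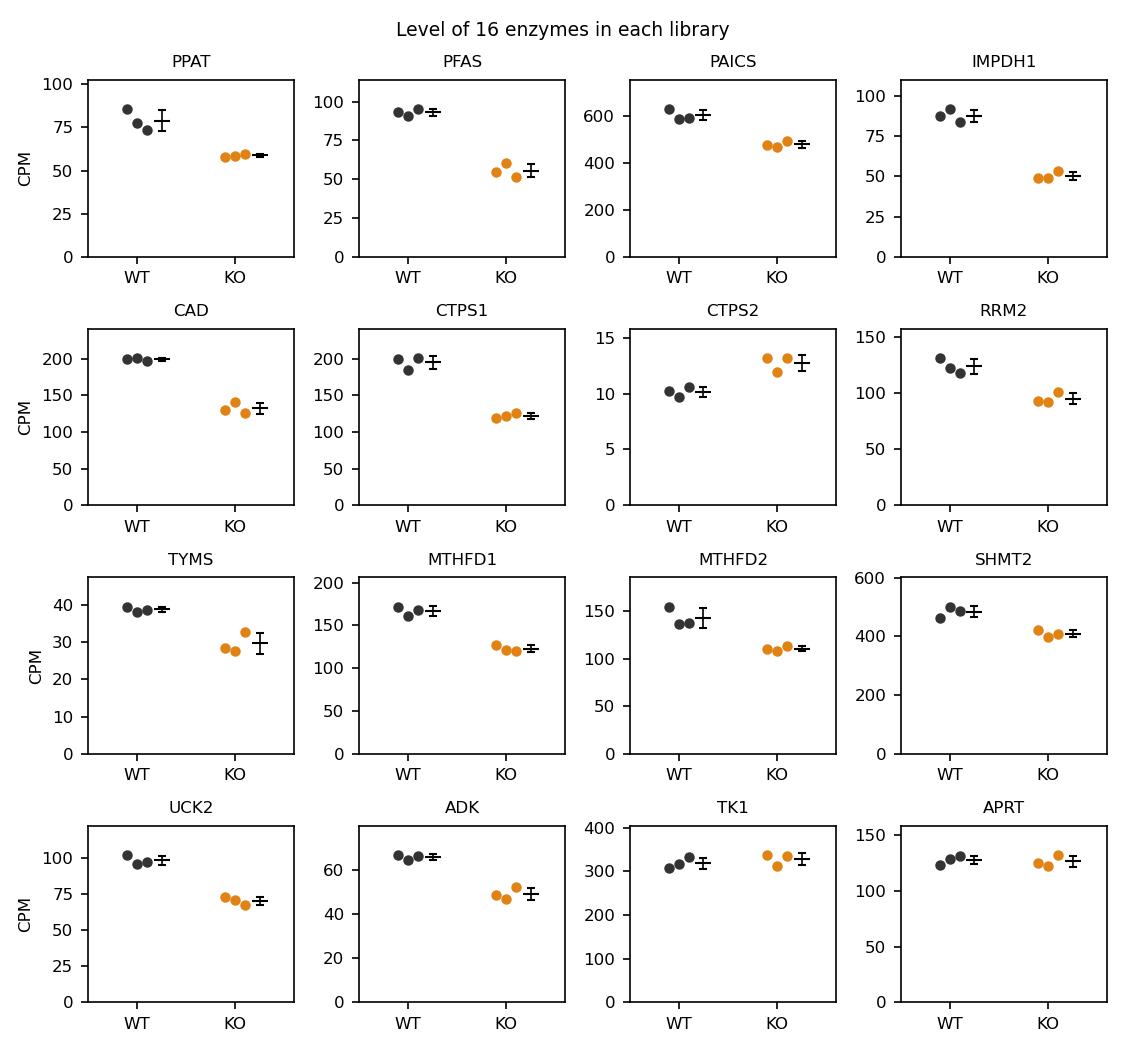
Level (CPM after TMM scaling, axes from 0) of 16 enzymes in each of the 6 libraries (points), with mean and SD at the right of each group. The groups are apart for PPAT, PFAS, PAICS, IMPDH1, CAD, CTPS1, RRM2, TYMS, MTHFD1, MTHFD2, SHMT2, UCK2 and ADK, all lower under the knockout label, and for CTPS2, which is higher, and overlap for TK1 and APRT.

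PPAT and PAICS, which fell by 0.43 and 0.33 on the log2 scale, are neighbours on chromosome 4, transcribed away from each other. The sequence between their annotated starts is shown because both genes share it. It is 125 bases long (76% G or C) and holds 3 copies of GGGCGG, set in capitals (RefSeq sequence, GRCh38.p14, plus strand, 5′ to 3′):
chr4:56435616-56435740: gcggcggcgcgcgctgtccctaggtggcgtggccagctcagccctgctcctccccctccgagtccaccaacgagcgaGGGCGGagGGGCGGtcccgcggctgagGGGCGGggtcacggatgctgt

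The E-box CACGTG, a palindrome and hence the same on both strands, is the letter sequence that MYC and its partner MAX are known to bind. It was searched from 250 bases before to 50 bases after each RefSeq start, a window of 300 bases. Windows were found for 32 of the 36 members, ADSS under its current symbol. CACGTG was in a window of 8 of these 32 (25%), PPAT, PAICS, ATIC, DHODH, MTHFD1, MTHFD1L, DCK and NME1, and in 8.77% of all 27305 genes with a window. All 8 were called lower, as were 17 of the 24 without it, and the median log2 fold change was -0.30 with and -0.34 without it. GGGCGG, on either strand, was in a window of 27 of the 32 and of 48.3% of all genes. Of those 27 members 20 were called lower, as were all 5 without GGGCGG. The median log2 fold change was -0.28 with and -0.38 without it. Such a match describes letters, not a site at which a factor was measured. The shares over all genes include genes not tested here, and no share among expressed genes was computed. The 32 members had 50 windows and the 27305 genes had 35116, and PPAT and PAICS are both counted for the same CACGTG site. Whether the members differ from expressed genes was therefore not tested. The sites are shown with 12 bases on each side and CACGTG in capitals (GRCh38.p14, 5′ to 3′ on the gene's strand), to set side by side the sequence these genes share. The site of PPAT is also that of PAICS, seen from the other strand, 182 bases before the start of PPAT. That of NME1 is too near the window's end to show.
PPAT, chr4:56435780-56435809, minus strand: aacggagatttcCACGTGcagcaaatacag
ATIC, chr2:215312001-215312030, plus strand: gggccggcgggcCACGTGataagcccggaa
ATIC, chr2:215312076-215312105, plus strand: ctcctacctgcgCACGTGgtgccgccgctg
DHODH, chr16:72008573-72008602, plus strand: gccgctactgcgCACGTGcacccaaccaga
MTHFD1, chr14:64388326-64388355, plus strand: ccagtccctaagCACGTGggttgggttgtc
MTHFD1L, chr6:150866320-150866349, plus strand: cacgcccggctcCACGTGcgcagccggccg
DCK, chr4:70993521-70993550, plus strand: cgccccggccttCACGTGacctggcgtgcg

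In the pyrimidine arm 4 of 5 enzymes were lower and 1 higher, with a median log2 fold change of -0.23. CAD (ENSG00000084774, GRCh38 chromosome 2, 27217390 to 27243943, plus strand), the multifunctional enzyme that starts the ring, measured 199.7, 201 and 197 CPM in the libraries labelled WT and 130.1, 141 and 127 CPM in those carrying the knockout label (log2 fold change -0.59 ± 0.04, SE, edgeR adjusted p = 1.24e-10). Its 3 WT-labelled libraries lie close together, and the highest knockout-labelled one is far below them. DHODH, the mitochondrial dehydrogenase of the pathway, measured 26.5, 28.7 and 29.5 CPM under the WT label and 23.8, 24.2 and 23.9 CPM under the knockout label (-0.23 ± 0.07), and UMPS, which forms UMP, 83.6, 74.4 and 77.5 CPM under the WT label and 65.4, 65.0 and 70.0 CPM under the knockout label (-0.23 ± 0.05). Both fell by less than CAD, with no overlap between groups. The last step, from UTP to CTP, has a pair of synthetases that went opposite ways. CTPS1 (ENSG00000171793, GRCh38 chromosome 1, 40979335 to 41012565, plus strand) measured 199.9, 185 and 201 CPM under the WT label and 119, 121 and 126 CPM under the knockout label, and so fell by 37.5% (-0.68 ± 0.04, adjusted p = 1.34e-11). CTPS2 (ENSG00000047230, GRCh38 chromosome X, 16588003 to 16712936, minus strand) measured 10.2, 9.70 and 10.6 CPM under the WT label and 13.2, 11.9 and 13.2 CPM under the knockout label, a rise of 25.6% (0.33 ± 0.10, adjusted p = 0.00652). Every library under the knockout label was below the WT-labelled ones for CTPS1 and above them for CTPS2. CTPS1 was the more abundant per length, 16.9 ± 0.781 FPKM against 1.84 ± 0.0838 FPKM for CTPS2 under the WT label.

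In the deoxynucleotide arm 5 of 6 enzymes were lower, RRM2B did not pass, and the median log2 fold change was -0.34. RRM1, the large subunit of ribonucleotide reductase, measured 185, 171 and 170.0 CPM under the WT label and 140.1, 136 and 148 CPM under the knockout label (log2 fold change -0.31 ± 0.05, SE). RRM2, the small subunit known for S phase, measured 131, 122 and 117 CPM under the WT label and 92.2, 91.7 and 101 CPM under the knockout label (-0.38 ± 0.05). Both subunits of the replicative enzyme thus fell without overlap. RRM2B, a small subunit known to be induced by p53, measured 21.6, 22.8 and 21.1 CPM under the WT label and 24.3, 24.2 and 25.1 CPM under the knockout label (0.17 ± 0.07). Its groups do not overlap and the knockout-labelled libraries are the higher ones, but the adjusted p was 0.0523, and it passed with 4 alternatives. These were limma-voom (adjusted p = 0.0494), upper-quartile factors (0.0115), the stricter filter (0.0221) and the fit that left out WT replicate 2 (0.0487). TYMS, which makes thymidylate, measured 39.5, 38.1 and 38.7 CPM under the WT label and 28.5, 27.6 and 32.8 CPM under the knockout label (-0.38 ± 0.07), and DTYMK, the kinase that follows, 80.7, 85.9 and 82.4 CPM under the WT label and 62.2, 61.5 and 65.8 CPM under the knockout label (-0.39 ± 0.05). The knockout-labelled libraries were the lower ones for both enzymes. DUT, which removes dUTP, had the smallest called fall, from 160.0 ± 1.01 to 146 ± 9.41 CPM (-0.13 ± 0.05, adjusted p = 0.0234). It was no longer called when WT replicate 3 (adjusted p = 0.0552), KO replicate 1 (0.0817) or KO replicate 2 (0.146) was left out, nor with upper-quartile factors (0.194), a stricter filter (0.0646) and cyclic loess (0.621). TYMS shares 46.6% of its exon bases with ENOSF1 and TYMSOS on the other strand, and ENOSF1 had 1010, 1069 and 878 counts under the WT label and 675, 935 and 870 under the knockout label, so part of the TYMS count is uncertain. RRM2 shares 20.2% of its exon bases with AC007240.1, which had 4 to 14 counts per library, and DUT shares 14.5% with AC023355.1.

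Of the 5 folate enzymes 4 were lower, SHMT1 did not pass, and the median log2 fold change was -0.24. MTHFD1, the cytosolic enzyme that interconverts the folate forms used for purines and thymidylate, measured 172, 161 and 168 CPM in the libraries labelled WT and 127, 122 and 120.4 CPM in those carrying the knockout label (log2 fold change -0.44 ± 0.04, SE). MTHFD2, its mitochondrial counterpart and an enzyme of dividing cells, measured 154, 136 and 138 CPM under the WT label and 110.1, 108 and 113 CPM under the knockout label (-0.37 ± 0.05). For both, the groups were apart. MTHFD1L, which releases formate from mitochondrial folate, fell less, from 73.7 ± 2.12 to 64.6 ± 1.58 CPM (-0.19 ± 0.05), and with cyclic loess scaling it was -0.12 and no longer called (adjusted p = 0.051). SHMT2, the mitochondrial enzyme that takes a carbon unit from serine, was the most abundant of the arm and measured 464, 501 and 488 CPM under the WT label and 421, 398 and 409 CPM under the knockout label (-0.24 ± 0.04). With cyclic loess its change was -0.11 (adjusted p = 0.0187). Its cytosolic relative SHMT1 measured 57.5, 57.3 and 58.1 CPM under the WT label and 52.4, 52.8 and 55.5 CPM under the knockout label and did not pass (-0.11 ± 0.05, adjusted p = 0.0953), although its groups do not overlap. MTHFD2 shares 33.2% of its exon bases with SLC4A5 and AC006030.1 on the other strand, each of which had at most 4 counts in a library.

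In the salvage arm 6 of 8 genes were lower and APRT and TK1 did not pass, with a median log2 fold change of -0.29. UCK2, which phosphorylates uridine and cytidine, measured 102, 96.1 and 97.1 CPM in the libraries labelled WT and 72.8, 70.9 and 67.5 CPM in those carrying the knockout label (log2 fold change -0.48 ± 0.05, SE). ADK, the adenosine kinase, measured 66.4, 64.2 and 66.2 CPM under the WT label and 48.4, 46.9 and 52.1 CPM under the knockout label (-0.42 ± 0.05). These nucleoside kinases fell with no overlap between groups. HPRT1, which returns hypoxanthine and guanine, measured 111, 101 and 103 CPM under the WT label and 90.7, 94.7 and 101 CPM under the knockout label (-0.13 ± 0.05, adjusted p = 0.0335), and DCK, which phosphorylates deoxycytidine, 41.5, 38.7 and 35.2 CPM under the WT label and 33.4, 34.4 and 35.4 CPM under the knockout label (-0.16 ± 0.07, adjusted p = 0.0461). The groups of each overlap. Their calls were lost in 8 (HPRT1) and 9 (DCK) of the 14 alternative fits. Leaving out single libraries gave HPRT1 an adjusted p of 0.163 (WT replicate 1), 0.0515 (WT replicate 3), 0.167 (KO replicate 1) and 0.081 (KO replicate 2). It gave DCK 0.222 (WT replicate 1), 0.0901 (WT replicate 2), 0.128 (KO replicate 1) and 0.0896 (KO replicate 2). Neither passed with the replicate block (0.0509 for HPRT1 and 0.0691 for DCK), upper-quartile factors (0.22 and 0.194), cyclic loess (0.481 and 0.121) or the stricter filter (0.0809 and 0.0888), and DCK did not by DESeq2 (0.0641). APRT, which salvages adenine, measured 123, 128 and 131 CPM under the WT label and 125, 122 and 132 CPM under the knockout label (-0.01 ± 0.04, adjusted p = 0.847). TK1, the thymidine kinase of S phase and the most abundant member per length (171 ± 6.57 FPKM under the WT label), measured 307, 318 and 332 CPM under the WT label and 337, 312 and 335 CPM under the knockout label (0.04 ± 0.04, adjusted p = 0.451). For APRT and TK1 the groups overlap, and only TK1 was called with an alternative, higher with cyclic loess (adjusted p = 0.00233).

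Nucleoside diphosphate kinases pass phosphate among nucleotides, and the members NME1 and NME2 were both lower. Their relatives outside the members went both ways. NME3 (log2 fold change 0.38 ± 0.05, SE) and NME4 (0.15 ± 0.05) were called higher, NME6 (-0.33 ± 0.07) was called lower and NME7 did not pass. NME1 measured 56.9, 51.1 and 51.3 CPM under the WT label and 37.7, 33.8 and 47.3 CPM under the knockout label (log2 fold change -0.42 ± 0.08, SE, edgeR adjusted p = 0.000191), with KO replicate 3 the nearest to the other group. NME2 had 195, 195 and 169 counts under the WT label and 68, 108 and 108 under the knockout label and the largest fall of all members (-0.96 ± 0.13, adjusted p = 2.01e-06). These levels are uncertain. Of NME2's exon bases 22.9% lie in the readthrough gene NME1-NME2, as do 18.6% of NME1's, and 68.3% of the 50-base words of the longest NME2 coding transcript occur in transcripts of another gene. The readthrough gene itself had 3 to 17 counts per library and was not tested. Across the 36 members, 18 share no exon base with another gene of GENCODE release 29, and of these 12 were called lower and 1 higher.

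Ratios between related enzymes within a library do not depend on a scaling factor shared by all genes of that library. Scaling that varies with a gene's level, such as cyclic loess, could still change them. The ratios of 9 pairs were compared by an exact permutation test. With 3 libraries against 3 the smallest two-sided p is 0.1, so none can reach 0.05. All 9 pairs reached an exact p of 0.1, and 0.1 after adjustment over the 9. With these group sizes that value says only that the groups do not overlap. Among single genes tested, groups also did not overlap for 29.0% that were lower and 30.0% that were higher. The share among other pairs of genes was not computed. The log2 count ratio of CTPS1 to CTPS2 went from 4.26 ± 0.03 to 3.25 ± 0.09 (mean ± SD, n = 3 each), a difference of -1.005, the largest of the 9, so the excess of CTPS1 counts went from 19.2-fold to 9.54-fold. The ratio of ADSS to ADSSL1, a muscle isoform, went from 2.61 ± 0.16 to 1.87 ± 0.11. Here ADSSL1 rose (0.73 ± 0.08) while ADSS was not called. For RRM2 to RRM2B the change was from 2.50 ± 0.09 to 1.95 ± 0.05, and for IMPDH1 to IMPDH2 from -1.55 ± 0.06 to -2.10 ± 0.05. The PRPS1 to PRPS2 ratio went from 0.39 ± 0.08 to 0.02 ± 0.05. In each of these pairs the first gene was the one that lost against its relative. The same held for MTHFD2 to MTHFD2L (3.84 ± 0.06 to 3.36 ± 0.12) and MTHFD1 to MTHFD1L (1.18 ± 0.05 to 0.93 ± 0.08). SHMT1 to SHMT2 moved least and the other way (-3.07 ± 0.06 to -2.93 ± 0.06), as did NME1 to NME2 (2.84 ± 0.09 to 3.37 ± 0.34), whose shared exons make that ratio uncertain.

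**Figure D4:**
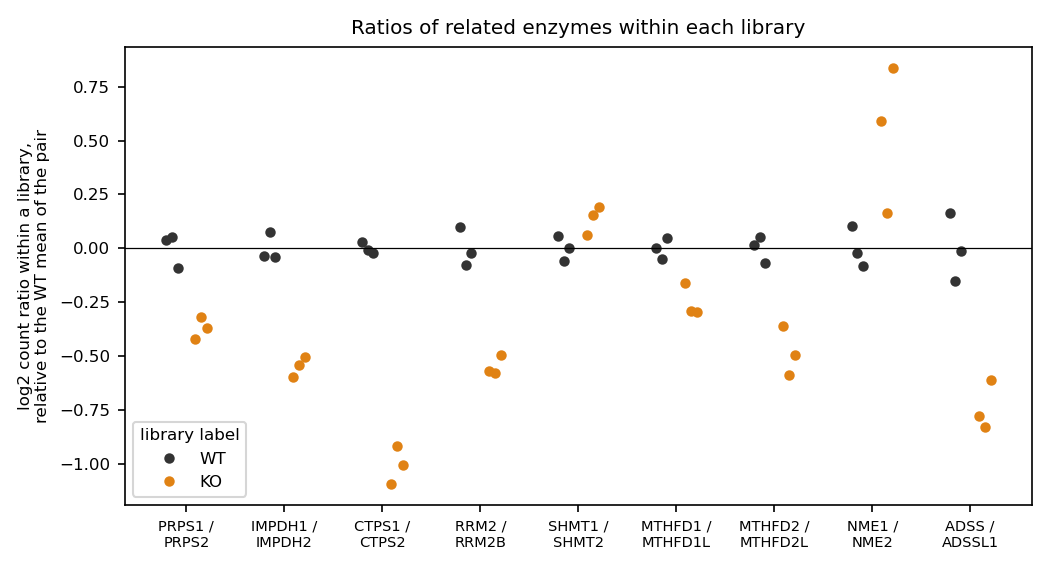
Log2 ratio of the counts of 2 related enzymes within each library, drawn relative to the mean of the 3 libraries labelled WT (0), for 9 pairs. The 3 libraries labelled knockout lie wholly outside the WT-labelled ones in each pair, lowest for CTPS1 over CTPS2 and above 0 for SHMT1 over SHMT2 and NME1 over NME2.

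Summed over members, the authors' FPKM went from 375.5 ± 9.03 to 305.3 ± 8 in the purine arm (SD, n = 3 each), from 56.7 ± 1.18 to 40.5 ± 0.506 in the pyrimidine arm, from 161.6 ± 3.46 to 132.2 ± 7.10 in the deoxynucleotide arm and from 169.2 ± 0.966 to 139.0 ± 2.93 in the folate arm. The pyrimidine sum changed by -28.6%, the other 3 by -18.7%, -18.2% and -17.8%. CAD and CTPS1 hold most of the pyrimidine sum (23.6 and 16.9 FPKM under the WT label). By median log2 fold change the pyrimidine arm instead fell least of the 5 arms (-0.23, against -0.24 to -0.34 in the others). The salvage arm, where TK1 holds much of the sum, went from 369.9 ± 5.39 to 350.1 ± 13.6 FPKM (-5.35%). These sums are descriptions and were given no test.

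Genes around these enzymes were counted in the same way. Among 16 tested folate carriers and other folate enzymes 5 were lower and 3 higher (median log2 fold change -0.14). The folate receptor FOLR1 went from 3.11 ± 0.916 to 9.72 ± 1.02 CPM (SD, n = 3 each), a log2 fold change of 1.65 ± 0.16, and the mitochondrial ALDH1L2 rose by 0.87 on the log2 scale at a very low level. The call of ALDH1L2 was lost with cyclic loess (0.54, adjusted p = 0.132), by DESeq2 (0.0619) and without WT replicate 1 (0.09), WT replicate 3 (0.0885), KO replicate 1 (0.121) or KO replicate 3 (0.0765). Serine synthesis and its carriers gave 3 of 5 lower, the other 2 not passing, with PHGDH, the first enzyme from glycolysis to serine, at 211, 234 and 223 CPM under the WT label and 156, 153 and 162 CPM under the knockout label (-0.50 ± 0.05), the mitochondrial serine carrier SFXN1 at -0.45 ± 0.04 and PSAT1 at -0.24 ± 0.04 (-0.15 with cyclic loess). Of 8 genes that supply glutamine and aspartate, which donate nitrogen and carbon to the rings, 5 were lower and the other 3 did not pass. The lower ones include the aspartate aminotransferases GOT1 (80.4, 72.9 and 70.6 CPM under the WT label and 53.2, 50.3 and 51.9 CPM under the knockout label, -0.53 ± 0.06) and GOT2 (-0.45 ± 0.04). Of 7 pentose phosphate genes, which supply ribose, 3 were lower and 1 higher, with TKT (-0.27 ± 0.04, and -0.13 with cyclic loess) lower and PGLS (0.30 ± 0.07) higher. SFXN1 lies on chromosome 5, where 366 of 781 genes tested were lower and the median log2 fold change was -0.20, against 0.01 elsewhere. Of the 36 enzymes 0 lie on that chromosome.

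Other salvage enzymes and nucleotide kinases went both ways, 11 lower and 9 higher of 27 (median -0.01). The uridine phosphorylase UPP1 was lower (84.8, 80.5 and 88.0 CPM under the WT label and 49.0, 49.2 and 50.1 CPM under the knockout label, log2 fold change -0.77 ± 0.05, SE, edgeR adjusted p = 1.3e-11), while the thymidine phosphorylase TYMP (0.74 ± 0.07) and the mitochondrial kinase CMPK2, known as interferon-induced (0.78 ± 0.10), were higher. Genes of nucleotide breakdown and pool cleaning gave 6 lower and 3 higher of 19, with the ectonucleotidase NT5E (-0.53 ± 0.04) and xanthine dehydrogenase XDH (-0.73 ± 0.11) lower and NT5M (0.86 ± 0.28) higher. The call of NT5M was lost with cyclic loess (adjusted p = 0.0625) and without WT replicate 1 (0.0706). Of 5 nucleoside transporters tested, 1 was lower and 3 higher. SLC29A1, the main equilibrative transporter of nucleosides, measured 109, 103 and 100.3 CPM under the WT label and 52.6, 52.4 and 53.7 CPM under the knockout label (-0.98 ± 0.05, adjusted p = 1e-13), nearly a 2-fold fall with groups far apart. SLC28A3 (2.06 ± 0.26) and SLC29A4 (1.54 ± 0.24) rose from levels of 0.712 ± 0.0928 and 0.949 ± 0.0795 CPM.

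Genes of the cell cycle and the MYC network were read beside the enzymes. MYC measured 218, 212 and 225 CPM under the WT label and 195, 193 and 188 CPM under the knockout label, and so fell by 12.1% (log2 fold change -0.19 ± 0.04, SE, edgeR adjusted p = 0.000543), and of 10 network genes tested 3 were lower and 4 higher. With cyclic loess MYC was no longer called (-0.08, adjusted p = 0.124). The higher ones include MXI1 (1.03 ± 0.08), MXD4 (0.72 ± 0.08) and MNT (0.44 ± 0.07), which bind MAX in place of MYC. All 20 mitotic genes were lower (median -0.59), among them CDC20 (-0.93 ± 0.04), KIF20A (-0.86 ± 0.04) and CCNB1 (-0.79 ± 0.04), with KIF20A and CCNB1 on chromosome 5. Replication fork genes moved less: 8 of 24 were lower and 2 higher (median -0.08), with POLA1 (-0.46 ± 0.06), CDC45 (-0.41 ± 0.04) and GINS4 (-0.39 ± 0.07) among the lower. In the E2F family 5 of 13 were lower and 3 higher (median -0.14), with E2F7 (-0.47 ± 0.05) lower and TFDP2 (0.62 ± 0.07) and E2F1 (0.36 ± 0.05) higher. The part of these genes in the enzymes' lower level was not tested.

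**Figure D5:**
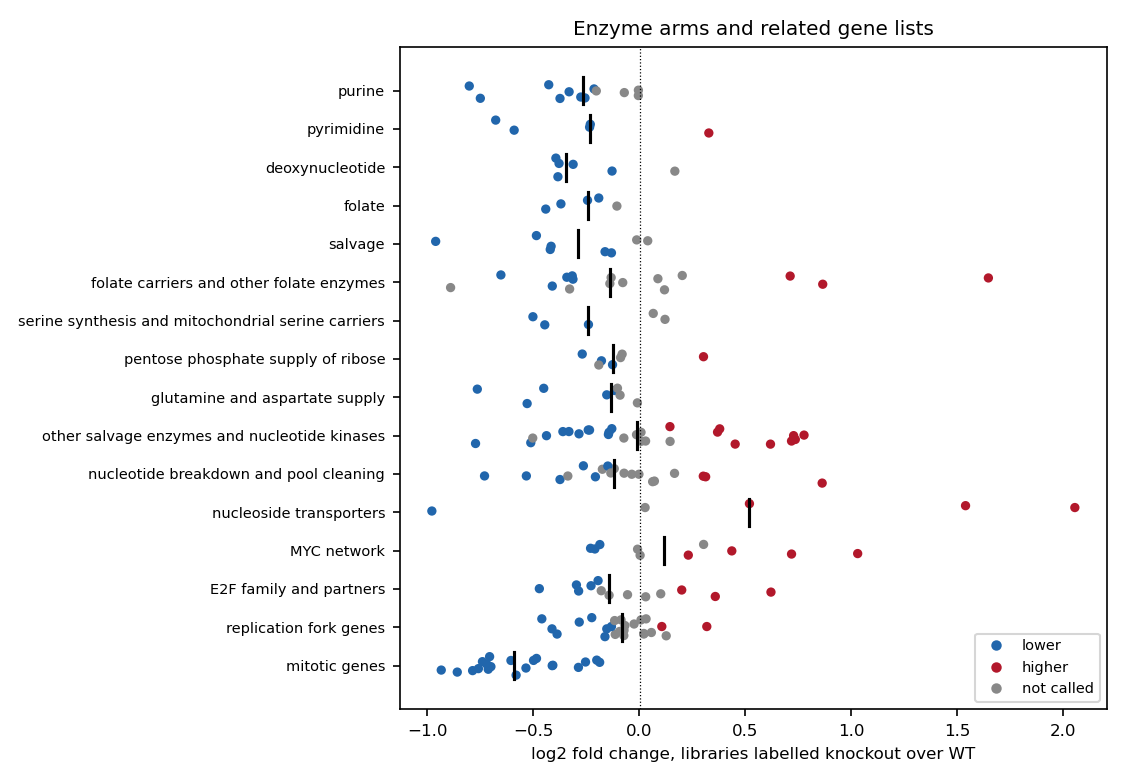
Log2 fold change of each gene tested (points, coloured by call) in the 5 enzyme arms and 11 related lists, with each list's median (bar) and the median of all genes tested (dotted line). The enzyme arms and the mitotic genes lie mostly below 0, while nucleoside transporters, other salvage enzymes and the MYC network spread to both sides.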

How the data were processed

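Bulk RNA sequencing of 3 libraries labelled WT and 3 labelled knockout was used. The authors deposited whole-number counts per gene, and, per the file headers, FPKM values, a log2 fold change and an adjusted p-value for each gene. Fastp, HISAT2, STAR, DESeq and the builds GRCh38 and hg38 are named in the submitters' processing notes; the role and version of each, as well as how reads were counted, is not given in the sources used here.

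Counts of 16655 genes that passed filterByExpr (minimum count 10, total 15) were scaled by TMM and tested with edgeR 4.0.16 (glmQLFit and glmQLFTest, R 4.3.3), 3 against 3, with Benjamini-Hochberg adjustment over all genes and a threshold of 0.05. CPM values use the TMM factors. The script was tested on simulated data. Ratios of related enzymes used log2 counts with an offset of 0.5 and an exact two-sided permutation test (SciPy 1.17.1). Alternatives used limma 3.58.1 and DESeq2 1.42.0, other scaling, no filter or a stricter one (50 counts in 3 libraries), and each library left out in turn. Exon overlaps were counted in GENCODE release 29. Promoter sequences are from RefSeq (GRCh38.p14).

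All members were named, as were MUC16, MYC and, in each related list, up to 3 genes with the largest absolute log2 fold change past the threshold; some genes this rule names are not reported here. ADSSL1, MTHFD2L, NME3, NME4, NME6, NME7 and overlapping genes were named as relatives or partners of members. The members and lists were chosen with earlier results of these data known. Totals were 19088927 to 28612621 counts per library. The biological coefficient of variation was 0.0498, and libraries within a group varied beyond counting noise (chi-square per degree of freedom 2.44 to 6.17). The labels name an NEBNext Ultra RNA kit with no strand marking stated, so reads of genes that overlap on opposite strands were taken as not told apart.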

Additional observations from a re-analysis of the deposited data

How the results depend on the processing

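Under 14 alternative fits (other scaling, filters and tests, the replicate number as a block, and each library left out in turn) all 28 called members kept their direction, and 24 were called in every one. The number called lower ran from 24 to 27, and was 24 at an adjusted p threshold of 0.01. Those not called in every fit were DUT, HPRT1, DCK and, with cyclic loess, MTHFD1L. Sizes were less stable. With cyclic loess 8 called members (GART, PAICS, ATIC, IMPDH2, SHMT2, MTHFD1L, DUT and HPRT1) had log2 fold changes smaller by over 1.5 times, down to -0.03 for DUT and -0.05 for HPRT1, and the median of all members was -0.20. With upper-quartile factors 3 were smaller by as much (DUT -0.07, HPRT1 -0.08 and DCK -0.11), as was DCK without WT replicate 1 (-0.11). The number called higher was 2 instead of 1 with upper-quartile factors, cyclic loess, a stricter filter and limma-voom, and 1 to 2 with a library left out (2 without WT replicate 2). The added gene was RRM2B, so that 1 deoxynucleotide enzyme was called higher (0 to 1 with a library left out), except with cyclic loess, where it was TK1 and 1 salvage enzyme was called higher. Uncalled members near 0 changed sign. With upper-quartile factors, cyclic loess and a stricter filter in turn, log2 fold changes were 0.0517, 0.0495 and 0.0232 for PRPS2, 0.0519, 0.0799 and 0.0234 for ADSS, and 0.0438, 0.0825 and 0.0153 for APRT. That of GMPS was 0.0312 with cyclic loess. With single libraries left out, the range was -0.0428 to 0.0271 for PRPS2, -0.0498 to 0.0197 for ADSS and -0.0426 to 0.0137 for APRT. The cause was not tested. Same-numbered libraries did not deviate together (correlations 0.00804, 0.0292 and -0.0441). No pairing by number was seen, but such correlations cannot exclude one, and the labels do not state any. With the replicate block 25 members were called lower and 1 higher, and the smallest two-sided p of a paralogue ratio was 0.25. Upper-quartile factors moved the median of the 12850 genes used for this comparison by 0.0556 (log2), the largest shift. NME2 and ADSL, with counts of 68 to 202, had the largest standard errors.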
